A study of Homo sapiens with 9 samples.

Results

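The 8 genes described here, TCP1, CCT2, CCT3, CCT4, CCT5, CCT6A, CCT7 and CCT8, encode the subunits of TRiC, also called CCT, the ATP-driven folding chamber (chaperonin) of the human cytosol. They were chosen by symbol, with earlier results of these data known. All 8 were among the 19969 gene symbols of a count table from HEK293T cells, a human embryonic kidney line. The series as a whole concerns editing of the RNA mark m6A under red or far-red light. Of its 9 libraries, 6 carried the name FHY1-M3 with a guide RNA (sgRNA), 2 with an ACTB guide, 2 with a con guide and 2 with a non-target guide. The other 3 libraries were named input. All 9 were made from RNA freed of ribosomal RNA in the same cell line. The labels do not state if the RNA of the FHY1-M3 libraries was total or immunoprecipitated, what the input cells received, which light was used, or what sets the con guide apart from the non-target guide. The con columns of the count table also bear the name ACTB, the promoter behind FHY1-M3 is not given in the sources used here, and nothing states that replicates were separate cultures. The p-values therefore rest on the spread among the libraries of a group, and this may be technical spread.

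TRiC consists of a pair of stacked rings, and each ring holds 1 copy of each of the 8 subunits. New polypeptides enter the central cavity, where ATP hydrolysis closes a built-in lid and the chain can fold. Actin, tubulin and many WD40-repeat proteins depend on it, and prefoldin and phosducin-like proteins work with it. In yeast, the counterparts of TCP1, CCT2, CCT4 and CCT5 form the side of the ring that binds ATP more tightly, and those of CCT3, CCT6A, CCT7 and CCT8 the side that binds it more weakly. The subunits are presented below by these sides.

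The genes are scattered over the genome. In the RefSeq gene table of build GRCh38.p14, TCP1 lies at chr6:159778498-159789602, CCT2 at chr12:69585459-69601570, CCT4 at chr2:61868085-61888671 and CCT5 at chr5:10249921-10266412. On the other side of the ring, CCT3 lies at chr1:156308968-156338292, CCT6A at chr7:56051765-56063989, CCT7 at chr2:73234308-73253005 and CCT8 at chr21:29056326-29073648. The promoter windows of 4 subunits are shown because they hold the CCAAT box, and that of HSPA6 because it is the heat shock gene that was at 0 in all inputs. Each window runs 5′ to 3′ from 250 bases before to 50 after the RefSeq gene start in GRCh38.p14, on the gene's own strand. Capitals mark CCAAT, its reverse complement ATTGG, and the paired heat shock units GAANNTTC or TTCNNGAA. The windows are those of TCP1 (chr6:159789553-159789852, minus strand), CCT2 (chr12:69585209-69585508, plus strand), CCT3 (chr1:156338243-156338542, minus strand), CCT8 (chr21:29073599-29073898, minus strand) and HSPA6 (chr1:161524290-161524589, plus strand).
TCP1: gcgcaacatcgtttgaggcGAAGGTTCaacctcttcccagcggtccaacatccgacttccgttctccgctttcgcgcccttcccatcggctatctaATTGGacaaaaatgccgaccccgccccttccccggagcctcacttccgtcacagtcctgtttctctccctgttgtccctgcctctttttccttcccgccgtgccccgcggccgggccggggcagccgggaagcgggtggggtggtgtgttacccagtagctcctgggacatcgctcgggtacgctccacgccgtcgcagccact
CCT2: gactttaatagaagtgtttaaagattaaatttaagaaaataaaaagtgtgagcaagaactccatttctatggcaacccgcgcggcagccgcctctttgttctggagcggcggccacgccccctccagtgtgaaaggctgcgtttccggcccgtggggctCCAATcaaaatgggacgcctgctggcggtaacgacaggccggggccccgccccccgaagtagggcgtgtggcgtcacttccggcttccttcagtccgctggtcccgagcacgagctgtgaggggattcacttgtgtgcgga
CCT3: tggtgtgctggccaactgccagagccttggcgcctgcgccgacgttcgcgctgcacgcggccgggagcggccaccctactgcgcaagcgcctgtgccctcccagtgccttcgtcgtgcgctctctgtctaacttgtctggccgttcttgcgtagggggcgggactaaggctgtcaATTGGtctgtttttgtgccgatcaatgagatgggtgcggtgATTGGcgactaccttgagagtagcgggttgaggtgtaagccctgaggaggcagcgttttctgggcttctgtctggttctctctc
CCT8: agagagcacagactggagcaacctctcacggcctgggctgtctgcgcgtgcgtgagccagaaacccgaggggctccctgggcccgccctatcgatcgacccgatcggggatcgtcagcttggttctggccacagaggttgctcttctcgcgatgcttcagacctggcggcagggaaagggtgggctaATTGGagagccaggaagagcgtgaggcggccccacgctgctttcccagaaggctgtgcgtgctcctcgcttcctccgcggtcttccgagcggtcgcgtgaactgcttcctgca
HSPA6: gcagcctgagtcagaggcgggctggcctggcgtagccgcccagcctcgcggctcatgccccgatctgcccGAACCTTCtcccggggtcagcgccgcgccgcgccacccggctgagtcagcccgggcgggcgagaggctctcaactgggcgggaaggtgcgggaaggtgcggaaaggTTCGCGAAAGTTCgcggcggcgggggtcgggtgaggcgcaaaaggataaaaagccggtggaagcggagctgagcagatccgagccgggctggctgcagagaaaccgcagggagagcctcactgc
Of the subunits, 7 matched a RefSeq window, and that of CCT5 was not at the start of its gene. CCAAT, read on both strands, was found in 4 of the 7 windows, and in 35.7% of all 27305 windows of the same length. The heat shock pair, which reads the same on both strands, was found in 1 of the 7, that of TCP1, and in 13.6% of all windows. Adding another unit at the same spacing, the arrangement seen in HSPA6 where the second run of capitals joins overlapping pairs, gave no match among the 7 and a match in 0.491% of all windows. The ETS core CCGGAAG was found in 1 of the 7, that of CCT2, and in 10.6% of all windows. HSPA6 does not stand for heat shock genes at large. The windows of DNAJB1 and HSPH1 had 0 heat shock pairs, and that of HSPA1B had 1. None of these windows matched with the added unit, and that of DNAJB1 was not at the start of its gene. These matches describe letters and show no bound factor.

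Depth differed between the groups. Total counts ran between 2900021 and 3802681 in the 6 FHY1-M3 libraries and between 350413 and 643954 in the 3 inputs. A subunit had 1078 to 3535 counts in an FHY1-M3 library and 60 to 392 in an input. The mRNAs of the 13 mitochondrial genes made up 0.563% to 0.639% of counts in FHY1-M3 libraries, against 7.52% to 7.8% in inputs. All 8 marker genes fixed for HEK293T were present in every library, with a summed level of 1200 to 1360 CPM in FHY1-M3 libraries and 1190 to 1400 CPM in inputs. Of 13 markers of blood, liver, fibroblasts, endothelium and mature kidney, 7 were at 0 in all libraries, and their summed level was 0.578 to 9.57 CPM in FHY1-M3 libraries and 5.78 to 16.3 CPM in inputs. Levels are given as CPM, counts scaled to the library total with TMM factors. They are not corrected for transcript length, so levels are compared between groups and not between genes.

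The question of the first comparison was whether the mRNAs of the chaperonin differed between FHY1-M3 libraries and input. All 8 subunit mRNAs were higher in the FHY1-M3 libraries, by 1.35-fold (CCT6A) to 1.98-fold (CCT8). Each passed the edgeR quasi-likelihood F test at a Benjamini-Hochberg adjusted p of 0.05 over the 13411 genes tested. Across all genes tested, 11.4% were called higher and 8.6% lower. The median log2 fold change was 0.77 over the subunits, or 1.71-fold, and 0.04 over all genes tested. With the mitochondrial and histone genes removed before scaling, all 8 subunits were still called higher by edgeR, with a median of 0.76. No input reached the lowest FHY1-M3 library for any of the 8 subunits, a separation that 14.9% of all genes tested showed. In bulk RNA such as this, fewer cells of a type and less RNA per cell cannot be told apart, and neither can the FHY1-M3 construct be told apart from other differences between these libraries and the inputs.

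On the side of the ring with the tighter ATP binding in yeast, TCP1, the subunit after which the complex was first named, had a lowest level of 414 CPM, a median of 432 CPM and a highest of 494 CPM in the 6 FHY1-M3 libraries, against 318, 219 and 251 CPM in the 3 inputs. The groups did not overlap, and 1 non-target library stood above the other 5 FHY1-M3 libraries. TCP1 averaged 438.5 ± 28.4 CPM in FHY1-M3 libraries (SD, n = 6) and 263 ± 50.3 CPM in inputs (SD, n = 3), a log2 fold change of 0.75 (SE 0.132, edgeR adjusted p = 5.53e-05). CCT2, from the same side of the ring, ran from 435.5 CPM through a median of 515 CPM to 551 CPM in FHY1-M3 libraries, against 243, 312 and 337 CPM in inputs. Its lowest FHY1-M3 library was an ACTB library that stood below the other 5, and it was still above every input. The log2 fold change of CCT2 was 0.77 (SE 0.124, edgeR adjusted p = 1.56e-05).

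CCT4, another subunit of this side, ran from 663 CPM through a median of 731 CPM to 789 CPM in FHY1-M3 libraries, against 338, 419 and 515 CPM in inputs. Input 3 was the highest input for CCT4, as it was for CCT2. The log2 fold change of CCT4 was 0.78 (SE 0.112, edgeR adjusted p = 2.58e-06). CCT5, the remaining subunit of this side, ran from 521 CPM through a median of 614 CPM to 645 CPM in FHY1-M3 libraries, against 341, 354 and 259 CPM in inputs. Both ACTB libraries were the lowest of the 6 FHY1-M3 libraries for CCT5, and input 3 was the lowest input. CCT5 had a log2 fold change of 0.91 (SE 0.117, edgeR adjusted p = 3.02e-07), the smallest adjusted p of the 8.

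On the side with the weaker ATP binding in yeast, CCT3 had the most counts of the 8 subunits and the least spread. It ran from 885 CPM through a median of 899.5 CPM to 919 CPM in FHY1-M3 libraries, against 517.5, 637 and 585.5 CPM in inputs. Its coefficient of variation was 1.51% in FHY1-M3 libraries, the lowest of the 8, and 10.3% in inputs, also the lowest. The log2 fold change of CCT3 was 0.63 (SE 0.0925, edgeR adjusted p = 3.34e-06). CCT7 ran from 638.5 CPM through a median of 668 CPM to 706 CPM in FHY1-M3 libraries, against 266, 445 and 376 CPM in inputs. For CCT7 both ACTB libraries were the lowest of the 6, and input 1 was well below the other inputs. Its log2 fold change was 0.87 (SE 0.12, edgeR adjusted p = 1.13e-06).

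CCT8 and CCT6A, from the same side of the ring, were at the ends of the range. CCT8 ran from 412 CPM through a median of 465.5 CPM to 518 CPM in FHY1-M3 libraries, against 208, 315 and 157 CPM in inputs. The inputs of CCT8 scattered most of the 8, with a coefficient of variation of 35.7%, against 8.41% in FHY1-M3 libraries. CCT8 had the largest log2 fold change of the 8, 0.99 (SE 0.151, edgeR adjusted p = 7.39e-06). This value was 1.33 without input replicate 2 and 0.78 without input replicate 3, where CCT5 was also at 0.78. CCT6A ran from 339 CPM through a median of 381 CPM to 398 CPM in FHY1-M3 libraries, against 202, 327 and 298 CPM in inputs. The groups were separated by 12.3 CPM, and the lowest FHY1-M3 library stood at 1.04 times the highest input. CCT6A had the smallest log2 fold change, 0.43 (SE 0.137, 95% interval 0.15 to 0.71, edgeR adjusted p = 0.0217). It lost its call in 5 of 19 alternatives, among them without con replicate 1 (log2 fold change 0.40, edgeR adjusted p = 0.0687) and without input replicate 1 (0.26, edgeR adjusted p = 0.154), whereas the other 7 subunits passed in all 19.

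**Figure D1:**
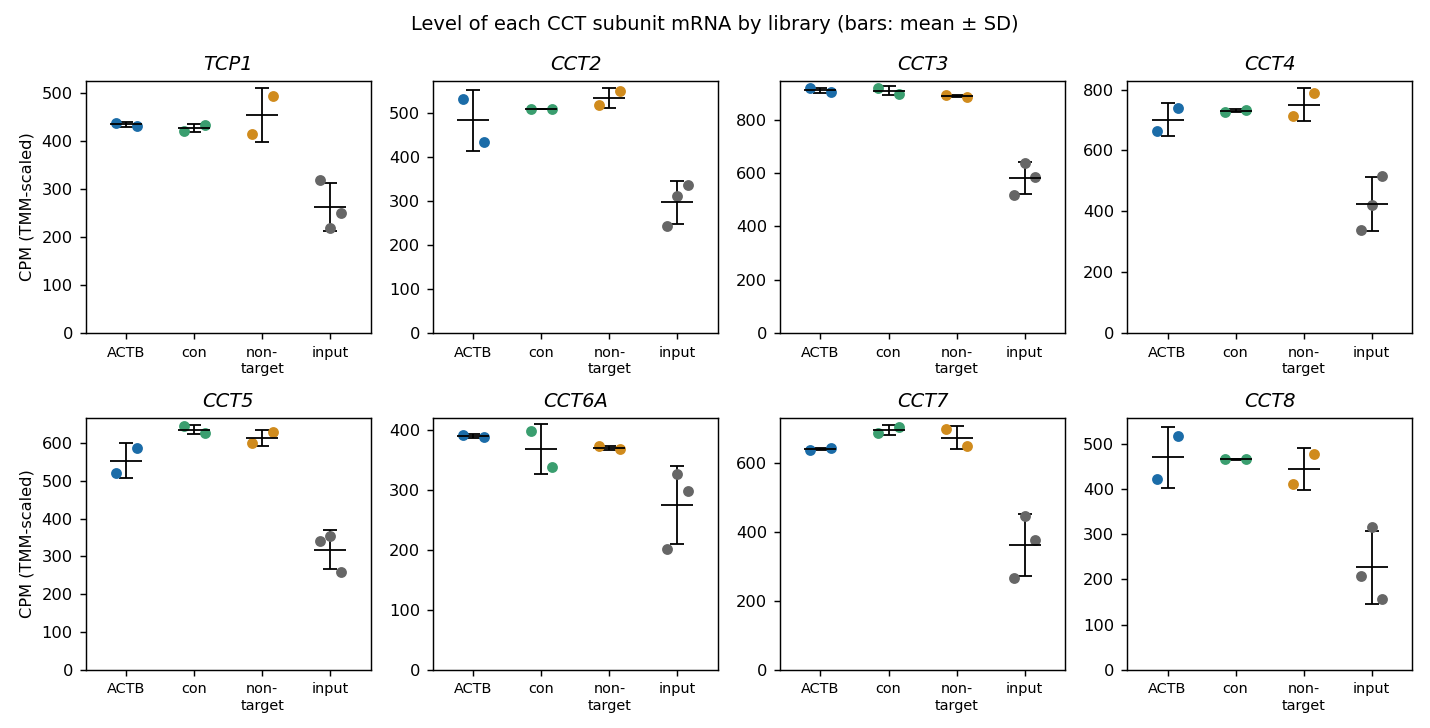
Level of each subunit mRNA in each library, in CPM after TMM scaling on axes that start at 0, by guide (n = 2 each) and in input (n = 3), with points for libraries and bars for mean ± SD. In each of the 8 panels every FHY1-M3 point lies above every input point, with the narrowest gap for CCT6A, 12.3 CPM.

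The 8 mRNAs together took 0.473% ± 0.0116 of all counts in FHY1-M3 libraries (SD, n = 6, 0.459% to 0.489%) and 0.267% ± 0.0249 in inputs (SD, n = 3, 0.24% to 0.289%). The make-up of the family is given as a description, with no test. CCT6A made up 8.04% ± 0.549 of the summed subunit CPM in FHY1-M3 libraries (SD, n = 6) and 9.94% ± 1.41 in inputs (SD, n = 3). CCT3 made up 19.3% ± 0.642 of it in FHY1-M3 libraries (SD, n = 6) and 21.1% ± 0.122 in inputs (SD, n = 3), and here the groups did not overlap. For CCT8 the share was 9.81% ± 0.755 in FHY1-M3 libraries (SD, n = 6) and 8.2% ± 2.4 in inputs (SD, n = 3), within the spread of the inputs. The SD of the log2 fold changes over the 8 subunits was 0.173, against a median SE of 0.122 for a single subunit. Among the log2 fold changes of all genes tested, those of the subunits stood between the 68th (CCT6A) and the 85.7th percentile (CCT8). CCT6A ranked 4290 and CCT8 1912 from the highest of 13411, where 1524 genes were called higher. The ranking thus takes in genes that were not called, and a higher rank alone does not show a rise.

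When each guide was set against the same 3 inputs, 7 of the 8 subunits passed the test for each guide, all of them higher. CCT6A was the exception each time, with a log2 fold change of 0.49 for the ACTB guide (SE 0.166, edgeR adjusted p = 0.0529), 0.40 for the con guide (SE 0.167, edgeR adjusted p = 0.117) and 0.41 for the non-target guide (SE 0.167, edgeR adjusted p = 0.101). It passed for all 3 guides without input replicate 2 (edgeR adjusted p = 0.0148 for ACTB, 0.0337 for con and 0.0292 for non-target). For the ACTB guide it also passed with library-size scaling (edgeR adjusted p = 0.0235), with no low-count filter (0.0268), with the replicate block (0.0379) and in DESeq2 (0.0412). Over all genes tested, 7.05% were called higher with the ACTB guide, 7.22% with the con guide and 8.1% with the non-target guide. Such shares depend on the setting. In either direction, edgeR called 1477 genes (ACTB), 1534 (con) and 1699 (non-target), and DESeq2 called 2472, 2604 and 2828. With the FHY1-M3 libraries thinned to input depth, edgeR called 976 (ACTB) and 1021 (con). The median log2 fold change over the 8 subunits was 0.73 with the ACTB guide, 0.78 with the con guide and 0.83 with the non-target guide. The call of CCT2 with the ACTB guide (log2 fold change 0.70, edgeR adjusted p = 0.00134) was lost without ACTB replicate 1 (0.55, edgeR adjusted p = 0.0931). Because the 3 comparisons share their inputs, they are not independent.

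**Figure D2:**
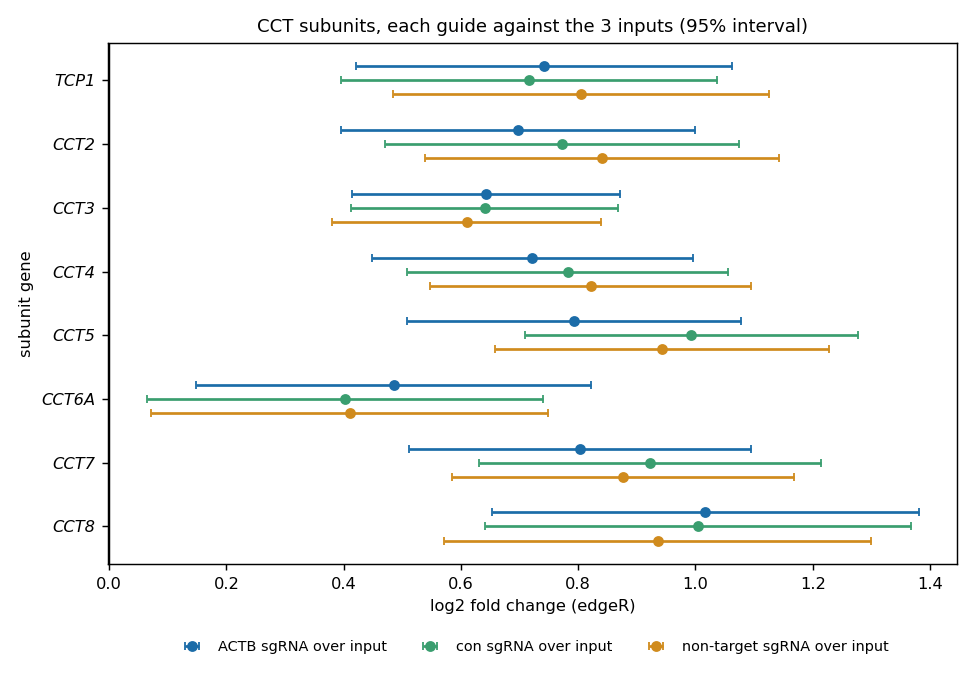
Log2 fold change of each subunit for each guide over the 3 shared inputs, with 95% intervals from the edgeR fit of all 9 libraries (n = 2 per guide). All 24 points lie right of 0, and CCT6A has the lowest of each guide.

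The guides were then compared with each other among the 6 FHY1-M3 libraries, which were of like depth. In the edgeR fit of 12808 genes, 0 of 8 subunits passed the test between the ACTB and non-target guides, between the ACTB and con guides, or between the con and non-target guides, and DESeq2 also called 0 in each. Few genes of any kind were called between guides, 0.25% between ACTB and non-target, 0.0312% between ACTB and con, and 0.172% between con and non-target. At an unadjusted p of 0.05 the subunits gave 0, 1 and 0 calls, where 7.82%, 3.86% and 5.25% of all genes tested passed. The subunit that passed without adjustment was CCT5 between the ACTB and con guides.

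CCT5 stood at 521 and 586.5 CPM in ACTB libraries, 645 and 628 CPM in con libraries, and 599.6 and 629 CPM in non-target libraries. The ACTB libraries did not overlap with either of the other guides. The log2 fold change of CCT5 between the ACTB and con guides fell short of the threshold over all genes at -0.20 (SE 0.0906, unadjusted p = 0.0354 and adjusted p = 1 by edgeR). CCT7 showed the same order, with 638.5 and 643 CPM in ACTB libraries, 686 and 706 CPM in con libraries, and 698 and 649.9 CPM in non-target libraries, and its log2 fold change between ACTB and con was -0.12 (SE 0.0845, edgeR adjusted p = 1). CCT3 differed little, with means of 909.7 ± 10 CPM in ACTB, 908 ± 16.1 CPM in con and 889 ± 5.11 CPM in non-target libraries (SD, n = 2 each). For CCT8, the means were 469.7 ± 67.9 CPM in ACTB, 465.5 ± 0.689 CPM in con and 444 ± 45.8 CPM in non-target libraries (SD, n = 2 each), so that replicates of the ACTB guide lay farther apart than the guides.

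Between ACTB and non-target libraries, 4 of 8 subunits did not overlap, against 35.1% of all genes tested. Between ACTB and con the number was 2 of 8, against 34.2%, and between con and non-target 2 of 8, against 34.8%. The 95% intervals of the differences over all 8 subunits spanned 0.788-fold to 1.24-fold for ACTB over non-target, 0.769-fold to 1.24-fold for ACTB over con, and 0.811-fold to 1.22-fold for con over non-target. These limits are the outermost ends of 8 separate intervals without adjustment, and they are not a limit of detection. Single subunits had narrower intervals, such as -0.11 to 0.18 on the log2 scale for CCT3, ACTB over non-target. With 2 libraries a guide, a difference within a subunit's own interval remains possible.

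**Figure D3:**
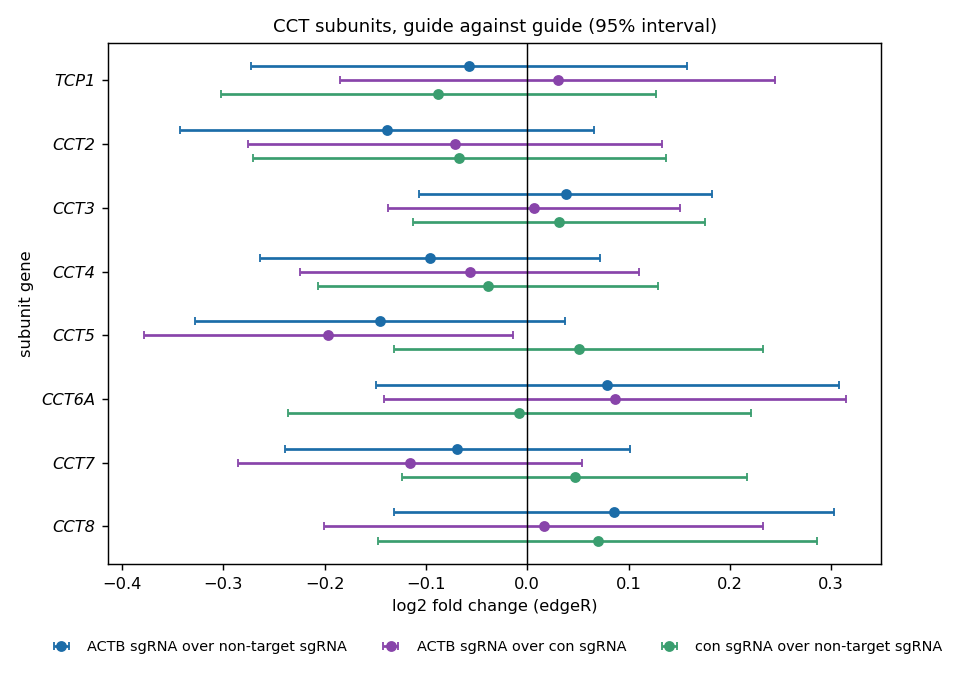
Log2 fold change of each subunit between guides, with 95% intervals from the edgeR fit of the 6 FHY1-M3 libraries (n = 2 per guide). Every interval crosses 0 except that of CCT5 for the ACTB over the con guide, which runs from -0.38 to -0.01 before adjustment for the number of genes.

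In the same comparison with input, lists of the chaperonin's partners and clients were counted beside the 11.4% of all genes tested that were called higher and the 8.6% called lower. Of the 6 subunits of prefoldin, the complex that hands actin and tubulin chains to TRiC, 1 rose and 0 fell, a share near that of all genes tested. Their log2 fold changes had a median of 0.23 and a range of -0.32 to 0.89. It was PFDN5, at 143.0 ± 17.9 CPM in FHY1-M3 libraries and 84.2 ± 13.2 CPM in inputs (log2 fold change 0.77, SE 0.215, edgeR adjusted p = 0.00939), a call lost when FHY1-M3 libraries were thinned to input depth (0.63, edgeR adjusted p = 0.0639). PFDN6 did not pass in edgeR (0.89, adjusted p = 0.0829) but passed in DESeq2 (0.81, adjusted p = 0.0415). Of the phosducin-like proteins and the related TXNDC9, which bind TRiC, 3 of 4 were tested, 0 passed by edgeR also without adjustment, and the median was 0.22. In the list of prefoldin-like and R2TP proteins, co-chaperones that assemble large complexes, 4 of 7 tested genes rose and 0 fell, with a median of 0.68. RUVBL2, an ATPase of that group, was at 276 ± 19.2 CPM in FHY1-M3 libraries and 106 ± 29.2 CPM in inputs (log2 fold change 1.34, SE 0.174, edgeR adjusted p = 3.56e-07). The calls of the other 3, PDRG1, URI1 and RUVBL1, were lost in 2, 7 and 12 of 19 alternatives. The log2 fold change of PDRG1 was 0.97 without input replicate 2 and 2.40 without input replicate 1, and that of RUVBL1 was 0.23 without input replicate 2.

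Among other chaperonins and chaperonin-like proteins, 1 of 5 tested genes rose and 0 fell, with a median of 0.07. A single call in a list of this size is near the share over all genes tested. The gene was HSPD1, the chaperonin of mitochondria, at 837 ± 39.6 CPM in FHY1-M3 libraries and 606 ± 93.8 CPM in inputs (log2 fold change 0.47, SE 0.0969, edgeR adjusted p = 0.000518). CCT6B, the close relative of CCT6A that is known from testis, had 30 counts over the 6 FHY1-M3 libraries and 0 over the 3 inputs, too few to test. Among the clients, 4 of 15 tubulins rose and 1 fell, with a median of 0.14. The 4 were TUBB6 (log2 fold change 2.38, SE 0.282), TUBB4B (1.13, SE 0.152), TUBB2B (1.74, SE 0.381) and TUBA1B (0.41, SE 0.0938), and TUBE1 fell by 0.87, a call lost in 7 of 19 alternatives, among them without input replicate 3 (-0.50, edgeR adjusted p = 0.334) and with the replicate block (-0.50, edgeR adjusted p = 0.346). The abundant TUBB averaged 1275 ± 81.7 CPM in FHY1-M3 libraries and 1463 ± 138 CPM in inputs (log2 fold change -0.20, edgeR adjusted p = 0.065), and passed as lower in 8 of 19 alternatives.

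Of the 6 tubulin cofactors, which act on tubulin after TRiC, 1 rose and 0 fell, again a share near that of all genes tested, with a median of 0.00. It was TBCC (log2 fold change 1.81, SE 0.471, edgeR adjusted p = 0.00516). Of the cytoplasmic actins, ACTB fell to 1350 ± 30.7 CPM in FHY1-M3 libraries (SD, n = 6), against 1644 ± 136 CPM in inputs (SD, n = 3), with a log2 fold change of -0.28 (SE 0.071, edgeR adjusted p = 0.00375), or -0.43 after thinning to input depth. ACTG1 averaged 2185 ± 64.4 CPM in FHY1-M3 libraries and 2208 ± 134 CPM in inputs and did not pass (log2 fold change -0.02, edgeR adjusted p = 0.895), and its sign turned with library-size scaling. Of 19 tested clients of other kinds, among them WD40 proteins, FZR1 (log2 fold change 1.90) and RPTOR (0.72) rose, VHL (-0.73) and GNB4 (-1.12) fell, and the median was 0.20. These 2 higher and 2 lower calls are near the shares over all genes tested. The log2 fold change of FZR1 was 2.85 without input replicate 2. The calls of RPTOR and GNB4 were each lost in 4 of 19 alternatives, RPTOR at 0.44 without input replicate 2 and GNB4 at -0.44 without input replicate 1.

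The list of heat shock genes had a larger median than the subunits, 1.08, and 14 of its 17 genes rose, while 0 fell. DNAJB1, a co-chaperone of HSP70, was at 931 ± 49.5 CPM in FHY1-M3 libraries and 139 ± 22.5 CPM in inputs (log2 fold change 2.76, SE 0.122, edgeR adjusted p = 2.3e-20). HSPA6, an HSP70 that unstressed cells hardly express, was at 238 to 293 CPM in FHY1-M3 libraries and at 0 in all inputs. Its mean in FHY1-M3 libraries was 121-fold the level that 3 counts over the inputs would give. This ratio is not a strict lower bound, because low counts were mostly even, as when both mates of a pair are counted. The log2 fold changes of HSPH1 (2.52) and HSP90AA1 (1.62) also exceeded those of all 8 subunits. So did those of HSPA1A (2.54), BAG3 (2.42), HSPA1B (1.78), DNAJA1 (1.38) and AHSA1 (1.08). The other genes that rose lay within the range of the subunits, 0.43 to 0.99. They were STIP1 (0.96), HSPA8 (0.67), HSP90AB1 (0.67), CHORDC1 (0.61) and FKBP4 (0.52). The 3 genes not called were HSF2 (0.61), HSPB1 (-0.01) and HSF1 (-0.25). In none of these lists did a gene pass the edgeR test between guides.

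Other genes followed the subunits across libraries. By Pearson's r over the 9 libraries between a gene's log2 level and the mean log2 level of the 8 subunits, among 5274 genes with a mean of at least 50 CPM, RNF219 was the most alike (r = 0.997), followed by BAZ1A (0.993), DHX30, SRRT and RBM39 (each 0.992) and EIF5 (0.991). As many as 526 genes had an r above 0.9. These values describe mainly the step between FHY1-M3 libraries and inputs, since over the 6 FHY1-M3 libraries alone r ran from -0.285 (EIF5) to 0.725 (RNF219). RNF219 was at 244 ± 16.8 CPM in FHY1-M3 libraries and 57.4 ± 15.7 CPM in inputs. Among the subunits themselves, r of each with the mean of the other 7 ran from 0.81 to 0.992 over 9 libraries, and from -0.426 (CCT3) to 0.786 (CCT4) over the 6 FHY1-M3 libraries.

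Reads of overlapping genes could enter the counts of TCP1, CCT3, CCT4 and CCT6A. The strand setting of the counting is not given in the sources used here. Of the overlapping genes, some have no row in the count table, so their levels are not known. CCT4 overlaps the long non-coding RNA gene LOC124907773 by 1610 bases. TCP1 overlaps the small nucleolar RNA genes SNORA20 (132 bases) and SNORA29 (140 bases), and CCT6A overlaps SNORA22B (138 bases) and SNORA15 (133 bases). Among protein-coding genes, TCP1 overlaps ACAT2 by 615 bases, CCT3 overlaps TSACC by 979 bases and CCT4 overlaps COMMD1 by 281 bases. ACAT2, TSACC and COMMD1 were low beside the subunits. ACAT2 averaged 38.0 ± 10.1 CPM in FHY1-M3 libraries and 23.5 ± 2.52 CPM in inputs, COMMD1 12 ± 3.51 CPM in FHY1-M3 libraries and 16.0 ± 6.53 CPM in inputs, and neither passed (edgeR adjusted p = 0.264 and 0.661). TSACC was at 0.466 ± 0.622 CPM in FHY1-M3 libraries and 13.3 ± 12 CPM in inputs. It fell by 5.49 on the log2 scale (edgeR adjusted p = 0.00871), against the direction of CCT3, and lost this call without con replicate 1 (edgeR adjusted p = 0.0526). The gene table also lists 16 pseudogenes of the subunits, 5 of them for CCT6A, and 0 have a row in the count table, so how reads shared with them were assigned is not known.

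**Figure D4:**
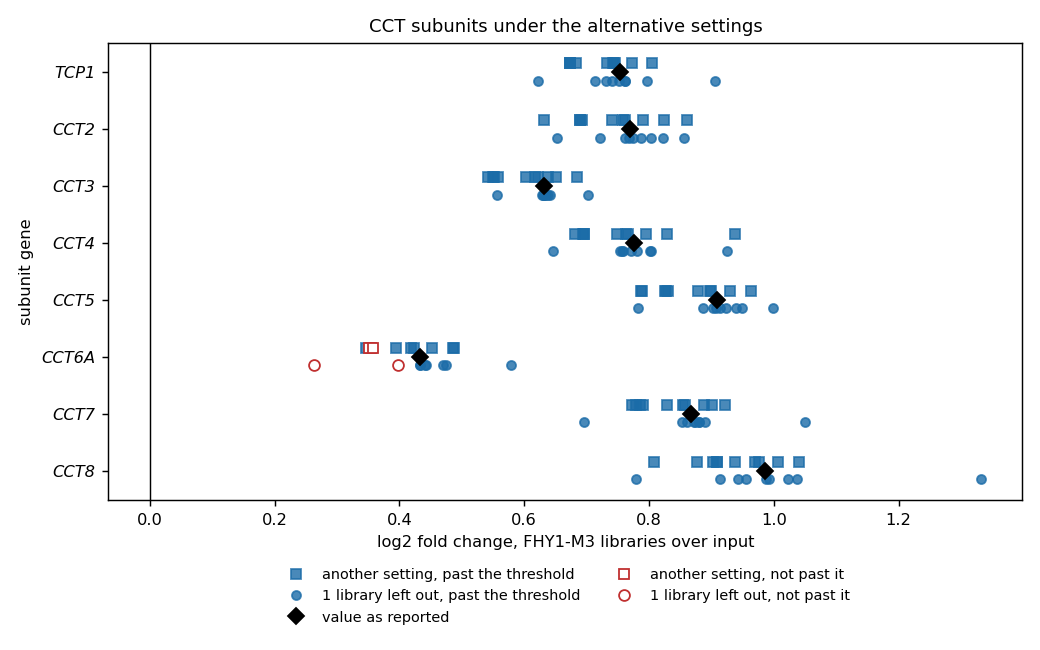
Log2 fold change of each subunit, FHY1-M3 libraries over inputs, as reported (diamonds), under 10 other settings (squares) and with 1 library left out in turn (circles), open where the adjusted p was not below 0.05. All open symbols belong to CCT6A, and every value lies right of 0, from 0.26 for CCT6A to 1.33 for CCT8.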

How the data were processed

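RNA of HEK293T cells was sequenced as 9 libraries. The deposited values are whole-number counts of reads per gene, with no normalization by the authors visible in them. Per the submitters' processing notes, cutadapt 4.3, STAR 2.7.10b and deepTools were used with build hg38. Neither the counting tool nor its strand setting is given in the sources used here. Per library, 88.5% to 95% of low values were even, as when both mates of a pair are counted.

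Groups were taken from the sample titles. Counts were tested in R 4.3.3 with edgeR 4.0.16 by its quasi-likelihood F test (limma 3.58.1, low-count filter by group, TMM scaling, two-sided, Benjamini-Hochberg adjustment over all genes tested), in 1 fit of 9 libraries for comparisons with input and 1 fit of 6 for comparisons between guides, 7 comparisons in all. The FHY1-M3 value is the mean of the 3 guides minus input. Standard errors were obtained by dividing the absolute log2 fold change by the square root of F. They and the 95% intervals include the spread between libraries that edgeR estimates. The pipeline was tested on simulated counts. Alternatives included DESeq2 1.42.0. Named genes are all 8 subunits, up to 4 genes with the smallest p per list, any gene among 5 or fewer calls, and the 6 most similar genes. TUBB and the heat shock genes beyond those 4 were named after their values were seen. The subunits and lists were chosen with earlier results of these data known. Gene positions, names and sequences come from RefSeq tables (GRCh38.p14).

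Between replicates, chi-square on halved counts, divided by its degrees of freedom, was above sampling noise. It was 1.85 to 2.36 between inputs and 3.35 to 5.18 between the deeper FHY1-M3 libraries of a guide. Each library counted as 1 sample, but these values do not show that replicates were separate cultures.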

Additional observations from a re-analysis of the deposited data

Results flagged for a closer look

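The 6 FHY1-M3 libraries were examined for each of the 8 subunits for a library far from the rest by Dixon's criterion at 95%, which chance meets in about 1 in 20 groups. TCP1 was highest in non-target replicate 2, at 493.8 CPM, and CCT2 was lowest in ACTB replicate 2, at 435.5 CPM. Both values lay above all 3 inputs of the same gene.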

How the results depend on the processing

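The count of subunits called higher in FHY1-M3 libraries than in inputs was 8 in 14 of 19 alternatives and 7 in the other 5, and the median log2 fold change ran from 0.67 to 0.83. With 1 library left out in turn it was 7 to 8, and for the single guides against input 6 to 8 (ACTB), 7 to 8 (con) and 7 to 8 (non-target). CCT6A was the subunit lost each time in the FHY1-M3 comparison, with median-ratio size factors (0.36, edgeR adjusted p = 0.0588), a minimum mean of 10 CPM (0.35, edgeR adjusted p = 0.0633), thinning of the FHY1-M3 libraries to 462026 counts (0.36, edgeR adjusted p = 0.0811), and without con replicate 1 or input replicate 1. The cause was not tested. In the 3 comparisons between guides 0 subunits were called under every alternative run, including DESeq2.

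No pairing by replicate number was detected. Deviations of same-numbered libraries correlated at -0.0082 to 0.0183 over 8827 genes, and those of differently numbered ones at -0.0205 to 0.0205. With 2 libraries a guide, the deviations of a guide mirror each other, so few of these values are independent. With the replicate number as a block, 8 subunits were called in FHY1-M3 libraries, 8 with the ACTB guide (0.54 for CCT6A), 7 each with the other 2, and 0 between guides. TSACC lost its call with the block (edgeR adjusted p = 0.181).

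Of 384 subunit values between guides, 23 turned sign, none beyond 0.139 on the log2 scale. After thinning, the turned values were 0.0065 (CCT4, ACTB over non-target), 0.040 (CCT2), 0.015 (CCT4), -0.056 (CCT6A) and -0.0045 (CCT8) for ACTB over con, and 0.13 (CCT6A) for con over non-target, which was 0.0033 with library-size scaling. With 1 library left out, the ranges that crossed 0 were, for ACTB over non-target, -0.18 to 0.073 (TCP1), -0.29 to 0.0020 (CCT2) and -0.067 to 0.23 (CCT8). For ACTB over con they were -0.23 to 0.067 (CCT2), -0.017 to 0.023 (CCT3), -0.14 to 0.019 (CCT4), -0.031 to 0.21 (CCT6A) and -0.14 to 0.16 (CCT8). For con over non-target they were -0.21 to 0.044 (TCP1), -0.11 to 0.036 (CCT4), -0.13 to 0.11 (CCT6A), -0.0030 to 0.10 (CCT7) and -0.031 to 0.18 (CCT8). ACTG1, FHY1-M3 over input, was 0.036 with library-size scaling, 0.0031 with no filter and between -0.067 and 0.012 with 1 library left out.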
